A study of Homo sapiens with 62 samples.

Results

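The 10 genes of secreted inflammatory signalling described here were followed through every library of a study of engineered chromosome-arm loss. They were the chemokines CXCL1, CXCL2, CXCL3, CXCL5, CXCL8 and CCL20, the cytokines IL1A, IL1B and IL6, and the receptor IL1RL1. The members were taken by gene name. All 10 genes were found among 58735 genes in the tables of 4 cell lines, and all 10 among 48162 genes in the tables of the fifth, where CXCL8 carries its older name IL8 and was matched by its Ensembl identifier.

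The study removed a gained copy of a chromosome arm from human cell lines with a set of methods named ReDACT and sequenced poly-A RNA from cells grown for 24 hours. The 62 libraries fell into 16 groups from 5 established cell lines. A2058, a melanoma line labelled as carrying gains of 1q, 7p and 8q, gave 4 wild-type (WT) libraries, 4 of clones with 1q loss, 6 with 7p loss and 4 with 8q loss. HCT116, a colorectal cancer line with a gain of 8q, gave 2 WT libraries and 4 with 8q loss. AGS, a gastric adenocarcinoma line with a gain of 1q, gave 1 WT library, 2 of clones that carry an integrant named TK+, and 5 of clones with 1q loss. A2780, an ovarian cancer line with a gain of 1q, gave 2 WT, 2 TK+ and 6 libraries with 1q loss. MCF10A, an immortalised breast epithelial line, gave 2 WT libraries, 8 libraries with deletion of an extra copy of 1q, and the same numbers from cells of both genotypes that also express hRASV12, a constitutively active form of HRAS that is called hRas here. WT in every line means the parental line with its gain, and the MCF10A groups with hRas differ from their partners by that oncogene.

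All cells with an arm loss were clones grown from single cells. The losses were engineered by more than one ReDACT technique in MCF10A and AGS. In A2058, HCT116, A2780 and MCF10A a clone gave 2 libraries, which share their source. The labels call the MCF10A libraries biological replicates and say nothing of separate cultures elsewhere, so p-values measure the spread between libraries, which may in part be technical. In cultures measured in bulk, fewer cells that express a gene and less RNA per cell cannot be told apart.

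The members belong to one inflammatory circuit. CXCL1, CXCL2, CXCL3, CXCL5 and CXCL8 are chemokines with an ELR motif that attract neutrophils through CXCR2, and CCL20 attracts CCR6-bearing lymphocytes and dendritic cells. IL1A and IL1B are ligands of the IL-1 receptor and switch on the transcription factor NF-kB, which with AP-1 and C/EBP factors induces the chemokines and IL6, while IL1RL1 is the receptor for the related cytokine IL-33. Oncogenic RAS is known for raising many of these genes in epithelial cells, and fibroblasts and melanoma cells that enter senescence or an inflamed state secrete them too.

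The 5 ELR chemokine genes form a cluster on the long arm of chromosome 4, from the start of CXCL8 at chr4:73740506-73743716 to CXCL2 at chr4:74097035-74099293 (GRCh38). IL1A and IL1B are neighbours on chromosome 2 at chr2:112773915-112784590 and chr2:112829751-112836903, IL1RL1 lies at chr2:102311502-102352037 and CCL20 at chr2:227805739-227817564. IL6 at chr7:22725884-22732002 was the only member on an arm that was removed, the 7p of A2058. The annotation places IL6 across 2 genes of the other strand, STEAP1B and AC073072.1, and IL1RL1 across IL18R1 on its own strand. CXCL1, CXCL2 and CXCL3 are near copies of each other: 4.81%, 12.5% and 6.01% of their 50-base windows occurred in another of the 3 genes, so single counts among them can be exchanged, whereas CXCL8, IL1A, IL1B, IL6 and CCL20 shared no window with another gene.

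The promoters of 5 members that rose together in A2058 clones with 1q loss are shown because each holds a kB motif, the letters that NF-kB binds, at a similar distance from the start. Each line gives the bases just before the RefSeq start (GRCh38.p14), read 5′ to 3′ along the gene's strand, with the kB match GGANTTTCC and, in CXCL8, the AP-1 match TGANTCA in capitals.
CXCL1 (chr4:73869248-73869392, plus strand): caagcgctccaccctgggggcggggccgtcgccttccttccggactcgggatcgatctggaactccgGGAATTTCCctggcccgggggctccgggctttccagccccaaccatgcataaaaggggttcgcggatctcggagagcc
CXCL2 (chr4:74099196-74099340, minus strand): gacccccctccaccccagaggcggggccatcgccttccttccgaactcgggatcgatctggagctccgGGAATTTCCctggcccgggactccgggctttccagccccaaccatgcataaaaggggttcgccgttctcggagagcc
CXCL3 (chr4:74038690-74038834, minus strand): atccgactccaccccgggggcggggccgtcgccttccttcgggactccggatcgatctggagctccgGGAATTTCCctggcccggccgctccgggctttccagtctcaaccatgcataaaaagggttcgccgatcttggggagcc
CXCL8 (chr4:73740424-73740568, plus strand): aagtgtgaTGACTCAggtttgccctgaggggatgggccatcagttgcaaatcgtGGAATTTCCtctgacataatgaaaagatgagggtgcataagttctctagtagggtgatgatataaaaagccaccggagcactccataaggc
IL6 (chr7:22727055-22727199, plus strand): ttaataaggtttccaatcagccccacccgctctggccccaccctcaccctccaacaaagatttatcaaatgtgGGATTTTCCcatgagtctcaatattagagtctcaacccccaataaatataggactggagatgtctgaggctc
The kB match began 78 bases before the start in CXCL1, 77 in CXCL2, 78 in CXCL3, 91 in CXCL8 and 72 in IL6, and the promoter of CXCL5 held the same letters 90 bases before its start. Searched on both strands from 250 bases before to 50 after the start, the kB letters occurred in 577 of 35116 RefSeq promoters, or 1.64%. The promoters of the other 4 members, IL1A, IL1B, IL1RL1 and CCL20, did not hold these letters in this window. TGANTCA occurred in 7.71% of all promoters. It was found in CXCL8, 2 times in both entries of IL1A, and in 1 of the 2 entries of IL1RL1. Over the kB match and 40 bases on either side, CXCL1 and CXCL3 were identical at 92.1% of 89 bases and CXCL1 and CXCL2 at 75.3%, while CXCL8 and IL6 were identical at 33.7%. A match of letters is a description and says nothing of whether a factor was bound.

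Depth ran from 15042068 to 30984036 counts in genes per library, and levels are given as CPM, counts scaled to a library's total. A few facts about the libraries touch the results. The A2058 clones with 1q loss had a summed level of 5 melanocyte markers of 42.9 to 132 CPM, against 1664 to 2704 CPM in WT, and 919 to 2809 and 1777 to 2668 CPM with 7p and 8q loss. TYR was 0 to 0.855 CPM with 1q loss against 97.1 to 159 CPM in WT, but it was also low with 8q loss (2.08 to 6.67 CPM) and in 7p-loss clones 2 and 3 (0.0984 to 4.97 CPM), and high in 7p-loss clone 1 (557 and 1038 CPM). In MCF10A, both hRas libraries of 1q-loss clone 2 had TP63 at 0.511 and 0.636 CPM and CDH1 at 2.62 and 3.26 CPM, where the other hRas libraries of clones had at least 36.4 and 146 CPM. A2780 had the ovarian markers PAX8 and WT1 at no more than 0.542 and 0.0436 CPM, so the label was not borne out by these 2. With EPCAM, KRT8 and KRT18 added, the sum over 5 markers was 170 to 175 CPM in A2780 WT. It was 5.48 to 8.26 CPM in A2780 TK+ and 6.95 to 88.6 CPM with 1q loss. HRAS itself stood at 86.8 and 88.6 CPM in MCF10A WT, 76.2 to 101 CPM in 1q-loss clones, 176 and 178 CPM in hRas WT and 156 to 408 CPM in hRas 1q-loss clones, higher in every library labelled hRas than in any without it.

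The parental lines differed in which members they expressed. A2058 WT had the highest levels of CXCL1, CXCL8 and IL6, and MCF10A WT of CXCL2, IL1A, IL1B and CCL20 under the 3 scalings used, except that the 2 lines overlapped for CXCL2. CXCL1 was 81.5, 95.3, 123 and 104 CPM in the 4 A2058 WT libraries, 7.37 and 7.71 CPM in MCF10A, 2.58 CPM in AGS, 0 and 1.19 CPM in HCT116 and 0 in both A2780 libraries. A2058 therefore stood above every other parental line for CXCL1, while AGS, with 1 library, and HCT116 cannot be ordered beyond their spread. CXCL8 was 44.1, 89.7, 125 and 82.3 CPM in A2058 WT, 4.33 CPM in AGS, 2.57 and 3.49 CPM in HCT116, 2.05 and 1.49 CPM in MCF10A and 0.131 and 0.540 CPM in A2780.

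The IL-1 cytokines followed another order. IL1A was 19.5 and 36.4 CPM in MCF10A WT and no more than 0.510 CPM in any other parental library. IL1B was 3.48 and 5.59 CPM in MCF10A, 0.612 to 1.99 CPM in A2058 and 0 in AGS and HCT116. IL6 reached 1.94 to 4.41 CPM in A2058 WT and at most 0.468 CPM in the parental libraries of the other lines. CCL20 was 6.41 and 6.36 CPM in MCF10A, 1.36 to 1.90 CPM in A2058 and 0 in the parental libraries of HCT116, AGS and A2780. The order of CXCL3 and IL1RL1 changed with the scaling, and CXCL5 was at 3 counts or fewer in every parental library. Per kilobase of transcript, CXCL1 at 78.0 CPM per kilobase was the most abundant member in A2058 WT, above CXCL8 at 37.5, and IL1A at 13.2 was the most abundant in MCF10A WT. The AGS level rests on 1 WT library, so its place in these orders has no error.

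**Figure D1:**
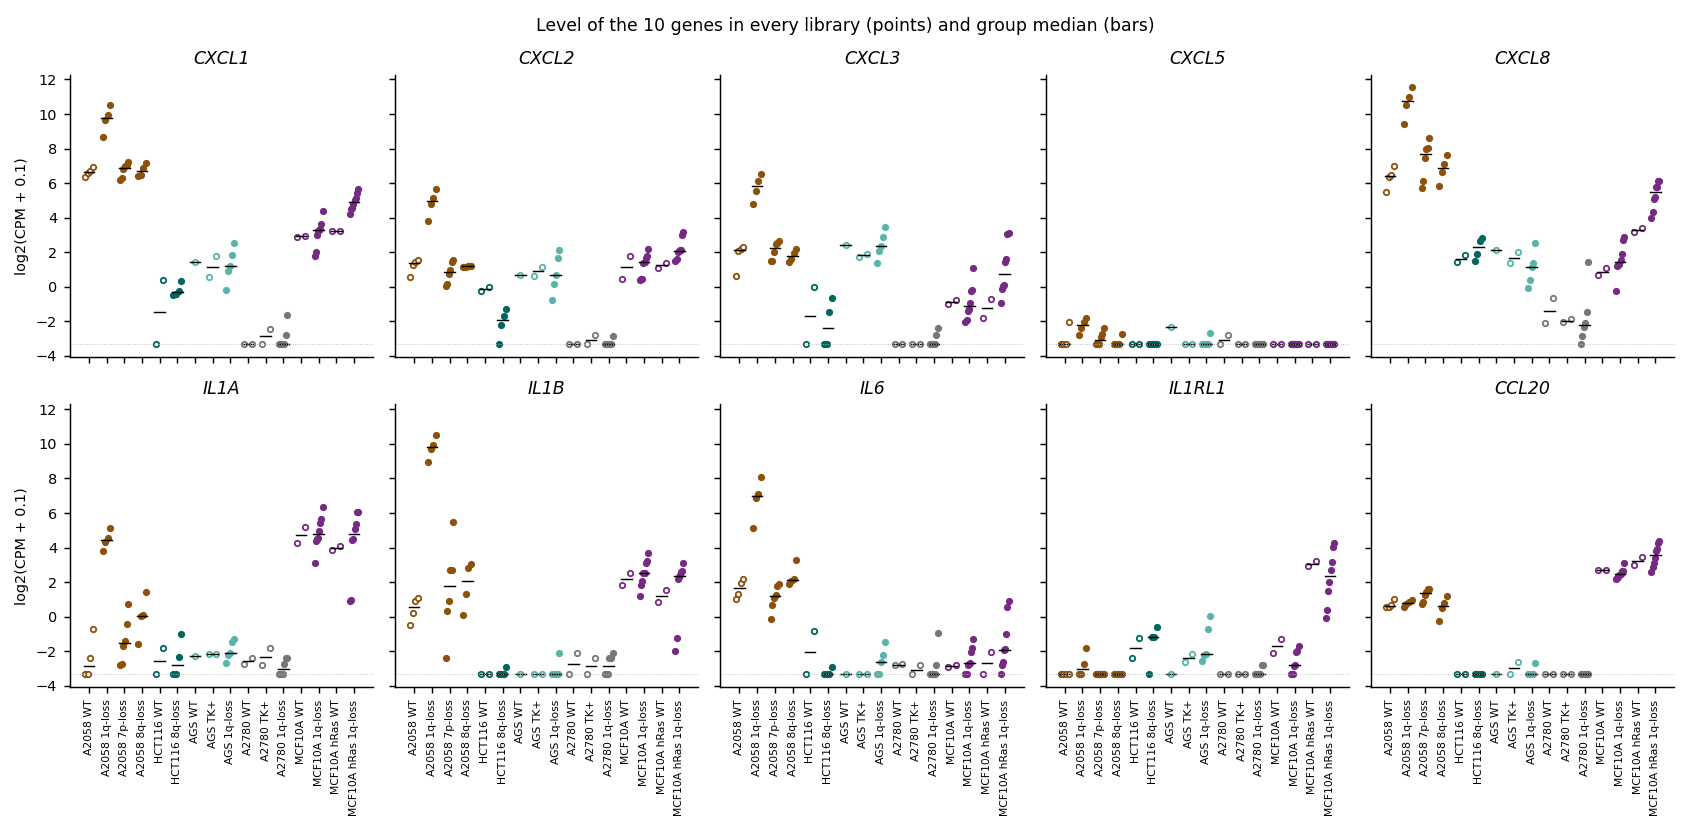
Level of each of the 10 genes in every library, by group, as log2 of CPM plus 0.1; points are libraries (open for WT and TK+ parental libraries and MCF10A hRas WT, filled for clones with an arm loss) and bars are group medians, with colours for cell lines and the dotted line at 0 counts. The 4 A2058 libraries with 1q loss lie above all other A2058 libraries for CXCL1, CXCL2, CXCL3, CXCL8, IL1A, IL1B and IL6, and CXCL8 and IL1RL1 are higher with hRas in MCF10A.

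The comparison of MCF10A WT with and without hRas asked what the oncogene changed in cells that kept the extra 1q. CXCL8, a potent neutrophil attractant, and IL1RL1, the IL-33 receptor, rose, and no other tested member passed the test. CXCL8 was 2.05 and 1.49 CPM without hRas and 9.09 and 10.4 CPM with it. IL1RL1 was 0.307 and 0.135 CPM without hRas, which is 9 and 3 counts, and 7.40 and 9.38 CPM with it. Both genes were higher in each hRas library than in each library without it. The log2 fold change of CXCL8 was 2.45 (SE 0.24, adjusted p = 0.000281 by edgeR's quasi-likelihood test) and IL1RL1 was called too (adjusted p = 1.63e-05). IL1RL1 entered the test through its hRas libraries, so its fitted value of 5.15 (SE 0.38) is no measure of size. Of 8 members tested, 2 were called higher, where 0.703% of the 14646 genes tested were called higher. The 2 include IL1RL1, which could enter the test only through the group where it was high. CXCL5 and IL6 were too low to test. Of 5 fibroblast markers DCN alone was higher with hRas, at 2.22 and 3.25 CPM without it and 18.5 and 18.9 CPM with it. COL1A1 was lower (10.8 and 16.1 against 7.50 and 7.75 CPM), PDGFRB overlapped, COL1A2 and LUM were at 0, and the sum was 13.3 and 19.5 against 26.1 and 27.1 CPM. The part of DCN in the result was not tested.

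The other chemokines moved little in these 4 libraries. CXCL1 was 7.37 and 7.71 CPM without hRas and 9.32 and 9.38 CPM with it (log2 fold change 0.31, adjusted p = 0.455). CCL20 was 6.41 and 6.36 CPM without hRas and 11 and 7.85 CPM with it (log2 fold change 0.56, adjusted p = 0.221). For both genes the libraries did not overlap, yet neither difference passed the test. CXCL2 had a log2 difference of -0.01 and CXCL3 of -0.36, with overlapping libraries. The 2 IL-1 ligands pointed downward without passing: IL1A was 19.5 and 36.4 CPM against 14.7 and 16.9 CPM with hRas, and IL1B was 3.48 and 5.59 CPM against 2.81 and 1.72 CPM. Their log2 fold changes were -0.81 (adjusted p = 0.107) and -0.99 (adjusted p = 0.189). Both were called lower with no filter on low counts and with a replicate block, and IL1A also without hRas replicate 2 (adjusted p = 0.0183). The calls of CXCL8 and IL1RL1 were lost when either WT library was left out, with adjusted p of 0.312 for both without replicate 1 and of 0.188 and 0.165 without replicate 2, although the log2 fold changes of CXCL8 were 2.71 and 2.25. In such a fit the lone library is assumed to vary like those of the other group. Without either hRas library both calls remained, with adjusted p of at most 0.00022. They were also lost in 1 fit of all 20 MCF10A libraries, where both had an adjusted p of 1.

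The same oncogene was then compared in the clones that had lost the extra 1q. CXCL8, CXCL1, CCL20 and IL1RL1 rose, the call of CCL20 being the least stable of the 4, and CXCL2 and CXCL3 rose as well once each clone was compared with itself. CXCL8 ranged from 0.759 to 7.26 CPM (median 2.61) in the 8 libraries without hRas and from 15.9 to 70.6 CPM (median 45.4) in the 8 with it. IL1RL1 ranged from 0 to 0.203 CPM (median 0.0434) without hRas and from 0.830 to 19.4 CPM (median 5.08) with it. Neither gene overlapped between the sets of libraries. CXCL1 went from 3.31 to 20.9 CPM (median 9.58) without hRas and 18.3 to 50.3 CPM (median 30.3) with it. CCL20 went from 4.43 to 8.59 CPM (median 5.35) and 5.87 to 20.5 CPM (median 12). For these 2 chemokines the highest libraries without hRas overlapped the lowest with it.

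In edgeR's quasi-likelihood test the log2 fold changes were 3.73 for CXCL8 (SE 0.42, adjusted p = 0.00057), 1.76 for CXCL1 (SE 0.33, adjusted p = 0.0241) and 1.20 for CCL20 (SE 0.25, adjusted p = 0.0374). IL1RL1 was called too (adjusted p = 0.00131), but it had 0 to 4 counts per library without hRas and entered the test through its hRas libraries, so its fitted value of 6.62 (SE 0.82) is no measure of size. That made 4 of 8 tested members called higher, IL1RL1 with this limit among them, where 0.795% of 14332 genes were. CXCL5 and IL6 were too low to test. The fibroblast marker sum was 14.2 to 287 CPM (median 64.4) in these libraries with hRas and 8.12 to 24.3 CPM (median 13.4) without it. That difference was in DCN (2.00 to 280 CPM with hRas, 0.328 to 16.3 CPM without). COL1A1 (5.59 to 12.8 and 6.46 to 13.6 CPM) and PDGFRB overlapped, and COL1A2 and LUM were at no more than 0.246 CPM. The part of DCN in the result was not tested. Clone numbers pair the libraries, since each clone's deviation from its group mean correlated best with the clone of the same number, with r of 0.290 to 0.718. With the clone as a block, 6 of 8 members were called higher, where 8.03% of genes were, and the 2 added were CXCL2 (log2 fold change 0.95, adjusted p = 0.0192) and CXCL3 (2.03, adjusted p = 0.0116). Without the block these stood at 1.03 (adjusted p = 0.113) and 2.46 (adjusted p = 0.080). With the replicate number alone as a block CCL20 was no longer called (adjusted p = 0.0507). IL1A and IL1B were not called in either fit, at log2 fold changes of -0.06 and -0.50 without the block and -0.59 and -0.85 with it.

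Some of these calls rested on few clones or libraries. Over 29 alternatives CXCL8 and IL1RL1 were each called in 28, CXCL1 in 24 and CCL20 in 14. CCL20 lost its call, at adjusted p of 0.0669 to 0.089, when any 1 library without hRas of clones 1 to 3 or any 1 hRas library of clones 2 and 4 was left out. CXCL1 lost it without replicate 2 of clone 3 without hRas (adjusted p = 0.0509) and without replicate 2 of clone 4 with hRas (adjusted p = 0.0508). Without clone 2, whose hRas libraries had little TP63 and CDH1, CXCL8 (log2 fold change 3.19, adjusted p = 0.00818) and IL1RL1 (adjusted p = 0.0429) were still called, and CXCL1 and CCL20 were not, with adjusted p of 0.205 and 0.323. Without clone 3 the same 2 calls remained, and CXCL1 and CCL20 had adjusted p of 0.0925 and 0.102. Without clone 4 CCL20 had an adjusted p of 0.0705. When the 2 libraries of each clone were summed, so that 4 values stood against 4, no gene of the whole table was called and CXCL8 had an adjusted p of 0.635.

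The ratio of levels with and without hRas was then read in each of 5 genetic backgrounds, as a description. For CXCL8 the mean level with hRas was 5.51 times that without it in the parental cells, 3.72 times in clone 1, 45.6 times in clone 2, 12.1 times in clone 3 and 11.8 times in clone 4. The ratio for CXCL1 was 1.24 in the parental cells and 1.86, 5.35, 3.74 and 3.22 in clones 1 to 4. Both chemokines were thus higher with hRas in every background, and clone 1 had the smallest ratio among the clones. CXCL3 had ratios of 0.774 in the parental cells and 1.25, 5.32, 2.99 and 7.69 in the clones, on 14 to 43 counts without hRas. CXCL2 had ratios of 0.975 and 1.63 to 2.41, and CCL20 of 1.47 and 1.30 to 2.97. IL1RL1 was at 1 count over the 2 libraries without hRas in clones 1 and 2, against 33 and 379 counts with hRas, at 4 against 150 counts in clone 3, at 7 against 863 in clone 4 and at 12 against 360 in the parental cells, too few without hRas to compare ratios.

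The IL-1 ligands were low with hRas in clone 2. IL1A there had a mean of 14.6 CPM without hRas and 1.84 CPM with it, a ratio of 0.126, while the other backgrounds had ratios of 0.565 to 1.28. IL1B in clone 2 went from 4.01 to 0.238 CPM, a ratio of 0.0593, against 0.499 to 0.962 elsewhere. Clone 2 with hRas therefore combined the highest CXCL8 of all MCF10A libraries, at 68.2 and 70.6 CPM, with the lowest IL1A and IL1B. The same libraries had the highest HRAS (364 and 408 CPM, against 156 to 218 CPM in the other hRas libraries of clones) and the highest DCN (260 and 280 CPM, against 2.00 to 85.7 CPM). Among hRas libraries of clones they also had the highest PDGFRB (0.590 and 0.596 CPM, against 0 to 0.430 CPM). Their COL1A1 (6.16 and 6.18 CPM) lay within the range of the other hRas clones, and COL1A2 and LUM were at 0. Their basal keratin and TP63 sum was 1429 and 1495 CPM, against 6672 to 10854 CPM. The part of these differences in the level of the members was not tested. IL6, a cytokine downstream of IL-1, was close to 0 in most MCF10A libraries, and clone 4 had the most, 78 counts over 2 libraries with hRas against 6 without it. CXCL5 had 0 counts in all 20 MCF10A libraries, where 3 counts, the limit a count of 0 allows, correspond to 0.102 to 0.194 CPM.

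**Figure D2:**
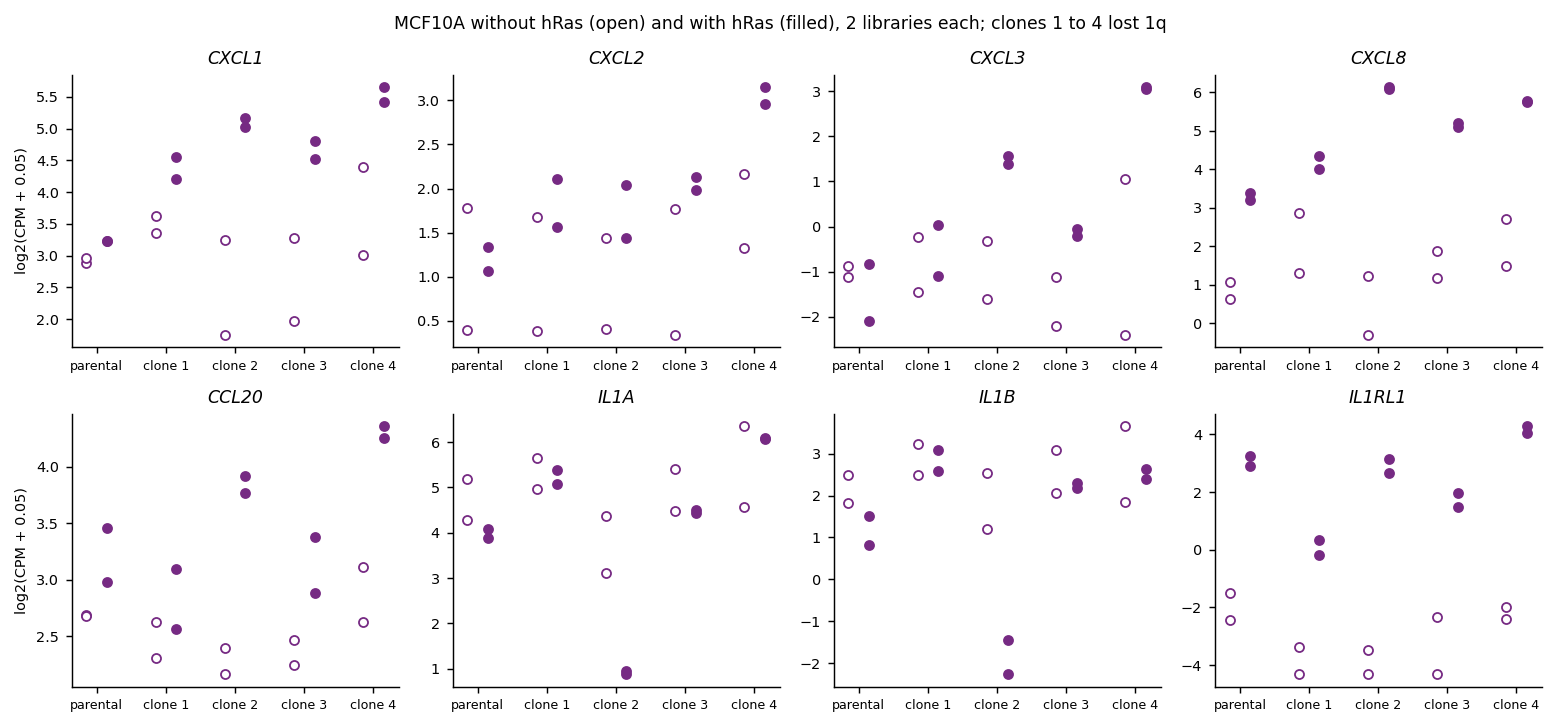
Levels of 8 of the genes in MCF10A without hRas (open) and with hRas (filled) as log2 of CPM plus 0.05, for the parental cells and 1q-loss clones 1 to 4, with 2 libraries each; the vertical scales differ between panels. CXCL8 and IL1RL1 are higher with hRas in all 5 backgrounds, and IL1A and IL1B are lowest in the 2 hRas libraries of clone 2.

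Losing 1q did not by itself move the members past the test in MCF10A. Of 7 members tested between 1q-loss clones and WT, 0 were called, where 2.04% of 15666 genes were. The differences ran from -0.16 for CCL20 to 0.97 for CXCL8 on the log2 scale, and CXCL8 (SE 0.64, adjusted p = 0.602) was 0.759 to 7.26 CPM (median 2.61) in clones and 2.05 and 1.49 CPM in WT. Between these ends lay CXCL2 at 0.11, IL1A at 0.34, CXCL1 at 0.37, CXCL3 at 0.43 and IL1B at 0.52, while CXCL5, IL6 and IL1RL1 were too low to test. At an unadjusted p under 0.05 none of the 7 passed either, since the smallest p was 0.151. Replicate numbers pair these libraries, and with the replicate block 0 members were called as well.

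With hRas in both groups, the 1q-loss clones stood above WT for 3 chemokines without passing edgeR's test. CXCL1 was 18.3 to 50.3 CPM (median 30.3) in the clones and 9.32 and 9.38 CPM in hRas WT, a log2 difference of 1.82 (SE 0.40, adjusted p = 0.113). CXCL8 was 15.9 to 70.6 CPM (median 45.4) in the clones and 9.09 and 10.4 CPM in hRas WT, a log2 difference of 2.23 (SE 0.58, adjusted p = 0.170). CXCL2 ranged from 2.66 to 8.84 CPM (median 4.16) in the clones and was 2.48 and 2.04 CPM in hRas WT (log2 fold change 1.16, adjusted p = 0.339). For these 3 genes every clone library lay above both hRas WT libraries. The share of all genes separated in this way was not taken, so nothing is read from that count. Of 9 members 0 were called, where 0.214% of 15851 genes were. DESeq2 called 3 members, CXCL1, CXCL3 and CXCL8, among 496 genes. The log2 differences of the remaining members, none of them called by edgeR, were 3.25 for CXCL3 (SE 1.38), 1.10 for IL1A (SE 1.15), 1.01 for IL1B (SE 1.08) and 0.48 for CCL20 (SE 0.47). IL6 had 0 to 3 counts in hRas WT, too few for a size (adjusted p = 0.479). IL1RL1 differed by -0.08 on the log2 scale between the same groups, with 0.830 to 19.4 CPM in the clones and 7.40 and 9.38 CPM in hRas WT.

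Whether 1q loss altered the effect of hRas was tested as an interaction over the 20 MCF10A libraries. It called 0 of 9 members, where 0% of 16492 genes were called, and 366 genes had an unadjusted p under 0.05. DESeq2 called 1 gene, not a member. These fits ignore that clone numbers pair the libraries. With the clone as a block, in a fit added after the values had been seen, 0 of 9 members and 1 gene in all were called, 1278 genes had an unadjusted p under 0.05, and CXCL1 had an interaction of 1.45 (SE 0.55, adjusted p = 0.602). Without the block CXCL1 was the only member among the 366, with an interaction of 1.44 on the log2 scale (SE 0.68, unadjusted p = 0.0473, adjusted p = 0.999 by edgeR), and CXCL8 had an interaction of 1.27 (SE 0.86). The others lay between 0.49 for IL1B (SE 1.18) and 2.81 for CXCL3 (SE 1.59), with CXCL2 at 1.05, IL1A at 0.75, IL6 at 1.62, IL1RL1 at 1.44 and CCL20 at 0.63. All 9 estimates were above 0, those of IL6 and IL1RL1 on few counts without hRas, where the median over all genes was 0.02. The 9 share their libraries, so their like signs are not separate observations. The intervals of the estimates are wide, so the design does not show that hRas acted alike in both genotypes.

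Within MCF10A, members grouped in their variation between libraries. With hRas, CXCL1 and CXCL8 had a Pearson correlation of log2 CPM of 0.91 over 10 libraries, and 0.94 over the 8 libraries without clone 2. IL1A and IL1B correlated at 0.95 with hRas, at 0.67 without clone 2 and at 0.94 in the 10 libraries without hRas. The relation between the chemokine and the IL-1 ligands was not stable. CXCL8 and IL1A correlated at 0.72 without hRas, at -0.29 with hRas, at 0.74 with hRas when clone 2 was left out, and at 0.42 when the 2 libraries farthest from the median of CXCL8 were left out too. The same values for CXCL8 and IL1B were 0.68, -0.40, 0.55 and -0.61, so the sign turned with the libraries used. These are descriptions over libraries that share clones in pairs. Among the 10 libraries without hRas, replicate 2 was above replicate 1 in 5 of 5 backgrounds for IL1A (1.61 to 3.45 times), IL1B (1.61 to 3.57 times) and CXCL2 (1.80 to 2.75 times), and with hRas in 1 of 5 for IL1A, 2 of 4 for IL1B and 1 of 5 for CXCL2.

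**Figure D3:**
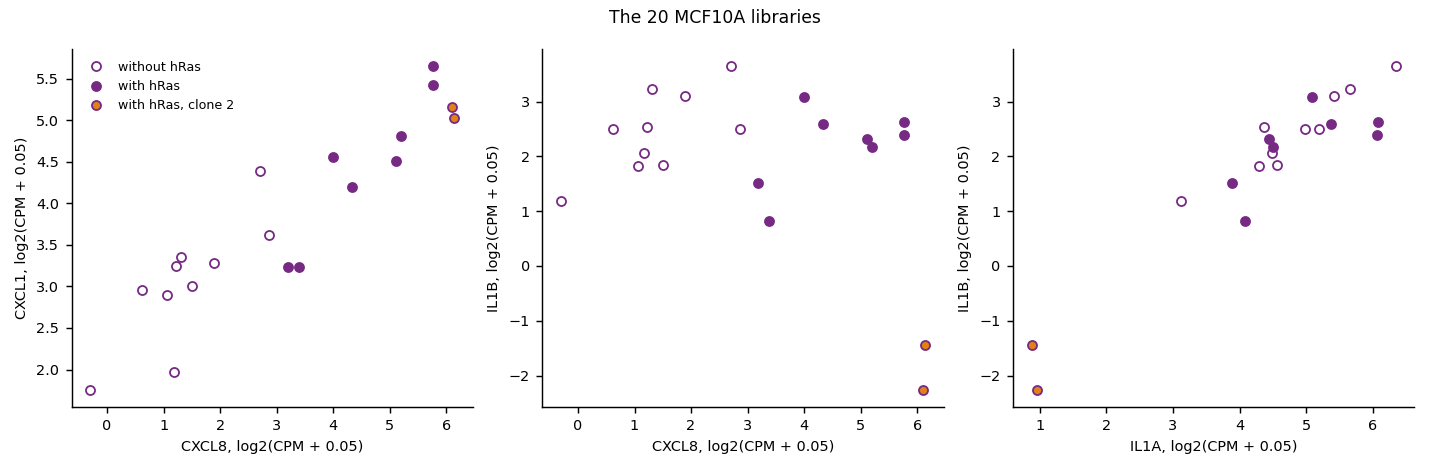
The 20 MCF10A libraries by CXCL8 and CXCL1, CXCL8 and IL1B, and IL1A and IL1B, each as log2 of CPM plus 0.05; open points are without hRas, filled points with hRas and orange points the 2 hRas libraries of clone 2. The chemokines are high in the same libraries, while clone 2 lies alone at high CXCL8 and low IL1A and IL1B.

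Outside the members, the genes whose levels over the 20 MCF10A libraries were most like those of CXCL8 were ESM1 (r = 0.92), SERPINE2 (r = 0.91) and DUSP5 (r = 0.91), of 11793 protein-coding genes ranked. IL1RL1 was most like ATOH8 (r = 0.94), DUSP5 (r = 0.91) and STC1 (r = 0.89). IL1B was most like LIMA1 (r = 0.95), WNT7A (r = 0.95) and TBC1D2 (r = 0.94). DUSP5, a phosphatase that acts on ERK and is itself induced by it, appeared beside both members that rose in parental cells.

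In A2058, the melanoma line, 7 members rose in the clones with 1q loss. CXCL1 was 81.5, 95.3, 123 and 104 CPM in WT and 406, 811, 973 and 1453 CPM in the 1q-loss libraries (the first 2 from clone 1, the others from clone 2). CXCL8 was 44.1, 89.7, 125 and 82.3 CPM in WT and 694, 2028, 1475 and 2981 CPM with 1q loss. Every 1q-loss library lay above every WT library for both genes. Their log2 fold changes were 3.21 (SE 0.33, adjusted p = 2.18e-05) and 4.43 (SE 0.46, adjusted p = 2.28e-05). CXCL2, with 1.38, 2.28, 2.83 and 2.64 CPM in WT, reached 14.0, 35.2, 27.2 and 49.9 CPM. CXCL3, with 1.43, 4.39, 4.92 and 4.13 CPM in WT, reached 27.6, 69.4, 47.5 and 93.7 CPM. These close copies of CXCL1 rose by 3.82 (SE 0.38) and 4.03 (SE 0.42) on the log2 scale.

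The IL-1 ligands changed most. IL1B was 0.612, 1.80, 1.99 and 1.07 CPM in WT and 495, 968, 826 and 1490 CPM with 1q loss. IL1A had 0, 2, 11 and 0 counts in the WT libraries and 14.1, 19.7, 23.4 and 34.9 CPM with 1q loss. IL6 was 1.94, 2.37, 4.41 and 3.79 CPM in WT and 35.3, 135, 119 and 273 CPM with 1q loss. No library of one group reached the levels of the other for these 3 cytokines. By edgeR's quasi-likelihood test the log2 fold changes were 9.45 for IL1B (SE 0.45, adjusted p = 1.50e-07) and 5.52 for IL6 (SE 0.60, adjusted p = 3.16e-05). IL1A was called too (adjusted p = 4.60e-06), against a WT level of 13 counts in all, of which 11 came from replicate 3. It entered the test through its 1q-loss libraries, so its fitted value of 7.26 (SE 0.60) is no measure of size. That value ran from 6.55 to 9.36 over the alternatives and was 9.36 without WT replicate 3. CCL20 was 1.36 to 1.90 CPM in WT and 1.37 to 1.89 CPM with 1q loss, a log2 difference of 0.12 (SE 0.21, adjusted p = 0.655). CXCL5 and IL1RL1 were too low to test, with at most 4 counts per library.

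Thus 7 of 8 tested members, IL1A with the limit above among them, were called higher, where 25.3% of the 15387 genes were. The comparison called 7638 genes in all. The 7 calls held in each of 18 alternatives, among them either clone alone and the 2 libraries of each clone summed. Clone 2 had higher means than clone 1 for all 7, and replicate 2 was above replicate 1 in both clones. The melanocyte markers moved with the members: SOX10 was 24.4 to 80.6 CPM with 1q loss against 473 to 660 CPM in WT, and PMEL 9.62 to 25.1 CPM against 781 to 1734 CPM. The fibroblast marker sum was 146 to 266 CPM against 36.8 to 46.4 CPM, mostly from COL1A1 (107 to 240 against 15.2 to 22.3 CPM). PDGFRB was also higher (2.04 to 12.2 against 0.357 to 1.16 CPM). DCN (0.0473 to 1.33 against 1.11 to 2.00 CPM) lay below WT in clone 1 and overlapped it in clone 2, and COL1A2 and LUM overlapped WT. The endothelial sum was 10.3 to 19.2 CPM against 2.14 to 4.04 CPM, and the leukocyte sum 0.475 to 1.23 CPM against 0.702 to 1.35 CPM, near 0 in both. The sum over 5 markers of basal breast epithelium was 50.7 to 261 CPM against 0.833 to 2.77 CPM. It came mostly from KRT17 (50.3 to 250 CPM against 0.408 to 2.34 CPM), with KRT5, KRT6A and KRT14 at no more than 0.333 CPM with 1q loss, and TP63 was 0 in WT, 0.237 and 0.426 CPM in clone 1 and 9.88 and 15.3 CPM in clone 2. The sum of simple epithelial markers was 163 to 207 CPM against 81.4 to 107 CPM, mostly KRT18, with EPCAM, CDH1 and KRT19 at no more than 0.19 CPM with 1q loss. Their part in the rise of the members was not tested.

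The A2058 clones that lost another arm were compared with WT in the same way. Of 7 members tested with 7p loss, 0 were called, where 0.908% of genes were, and of 8 tested with 8q loss, 0 were called, where 2.03% were. With 7p loss CXCL8 ranged from 52.0 to 386 CPM (median 213), overlapping WT (log2 fold change 1.26, unadjusted p = 0.0411, adjusted p = 0.366). IL1B ranged from 0.0896 to 44.2 CPM (median 4.07), with both extremes outside the WT range (log2 fold change 2.92, SE 1.28, adjusted p = 0.371). CXCL5 and IL1RL1 were too low to test with either loss, and CXCL8 differed by 0.54 with 8q loss (SE 0.37, adjusted p = 0.600). With 8q loss IL1B was 7.03, 2.41, 8.28 and 0.990 CPM (log2 fold change 1.77, adjusted p = 0.240) and IL6 was 4.07, 3.59, 9.69 and 4.38 CPM (log2 fold change 0.79, adjusted p = 0.404). IL1A, untested with 7p loss, was not called with 8q loss (adjusted p = 0.205), at 5 to 63 counts per library against 13 in all in WT. CXCL1, CXCL2, CXCL3 and CCL20 had log2 differences from -0.31 (CXCL2) to 0.63 (CCL20) with 7p loss and from -0.12 (CXCL3) to 0.09 (CXCL1) with 8q loss, none of them called. IL6, encoded on 7p, was 0.807 to 3.63 CPM (median 2.15) after 7p loss, and its log2 fold change of -0.44 (SE 0.40, adjusted p = 0.679) overlapped 0. Set directly against the 10 libraries with 7p or 8q loss, in a comparison added after the values had been seen, the 1q-loss libraries were higher for 7 of 8 members, where 17.1% of genes were. The smallest and largest of these were 3.06 for CXCL1 (SE 0.25) and 6.89 for IL1B (SE 0.90) on the log2 scale, and CCL20 differed by -0.28 (adjusted p = 0.512).

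**Figure D4:**
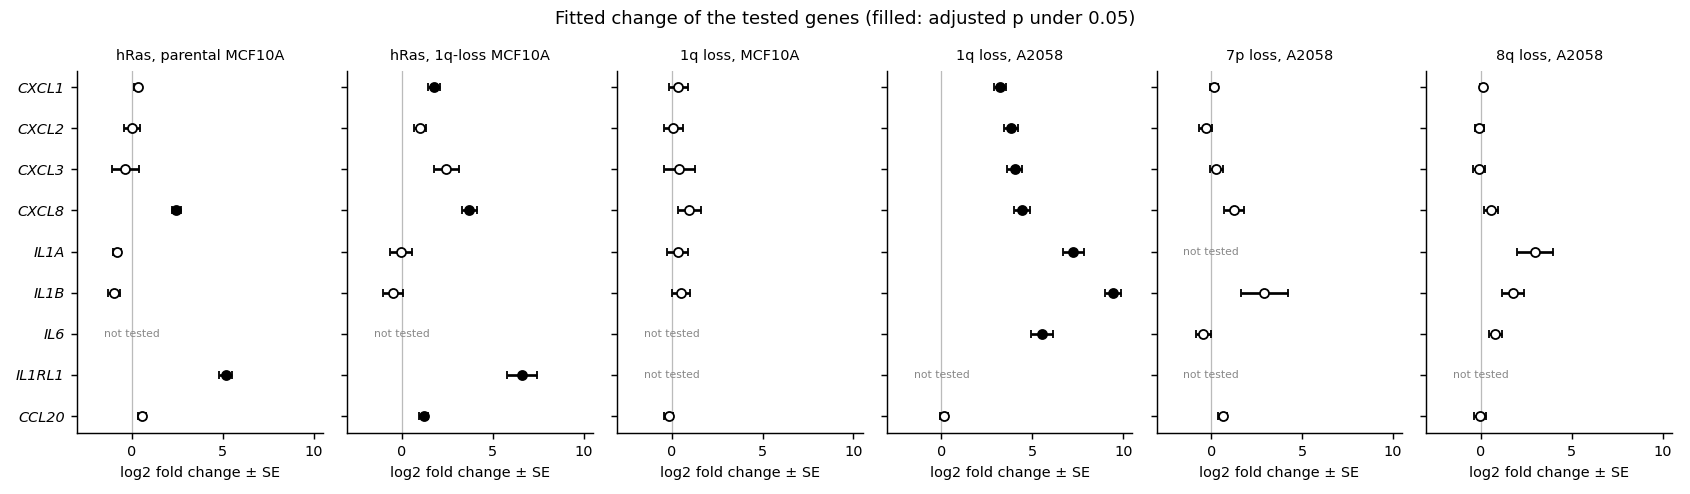
Log2 fold change of each tested member with its standard error in each comparison (filled where the adjusted p is under 0.05, open otherwise). CXCL8 and IL1RL1 are called in both hRas comparisons, 7 members are called in A2058 with 1q loss, and none is called in the other 3 panels.

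In the other cancer lines no member was called. In AGS 4 of 10 members were tested (CXCL5, IL1A, IL1B, IL6, IL1RL1 and CCL20 were too low) and 0 called, where 7.55% of genes were. CXCL8 was 4.33 CPM in WT, 2.45 and 3.95 CPM in TK+ and 0.848 to 5.72 CPM (median 2.11) in the 5 clones, a log2 difference of -0.54 (SE 0.54, adjusted p = 0.564). CXCL3 was 5.15 CPM in WT, 3.25 and 3.59 CPM in TK+ and 2.50 to 11 CPM (median 4.98) in the clones (log2 fold change 0.58, adjusted p = 0.450). CXCL1 and CXCL2 differed by 0.20 and 0.29 on the log2 scale. IL1B, IL6, IL1RL1 and CCL20 had 0 counts in AGS WT. In A2780 no member was expressed enough to be tested, in 1q-loss clones (where 11.8% of genes were called) or between TK+ and WT (11.2%). CXCL8 was the only member above 10 counts in any A2780 library. In HCT116, which lost 8q, 4 members were tested and 0 called, where 0.14% of genes were, and CXCL8 was 2.57 and 3.49 CPM in WT and 2.66 to 6.92 CPM in clones (log2 fold change 0.70, SE 0.55, adjusted p = 1). CXCL2 was 0.742 and 0.889 CPM in HCT116 WT and 0 to 0.303 CPM in the clones, with no overlap, and had a log2 difference of -2.29 (SE 1.38, adjusted p = 1). CXCL1 and CXCL3 differed by 0.30 (SE 1.30) and -0.97 (SE 1.93), and the other 6 members were too low to test.

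The difference between lines was tested itself, again as a comparison added after the values had been seen. The effect of 1q loss was larger in A2058 than in MCF10A without hRas for 6 of 8 members, where 11.2% of 17998 genes were called higher. It was larger by 2.84 for CXCL1 (SE 0.62, adjusted p = 0.00223), by 3.49 for CXCL8 (SE 0.90, adjusted p = 0.00795) and by 8.92 for IL1B (SE 0.73, adjusted p = 4.37e-08) on the log2 scale by edgeR's quasi-likelihood test. CXCL2, CXCL3 and IL1A were also called, IL1A on 13 counts in all in A2058 WT, whereas CCL20 differed by 0.28 (adjusted p = 0.602). IL6, at 0 to 6 counts in these MCF10A libraries, was not called (adjusted p = 0.512) and gives no size. Against AGS 5 of 8 were called, where 12.4% of genes were, with differences of 3.02 for CXCL1 and 5.0 for CXCL8. CXCL2 and CXCL3 were also called, and CCL20 differed by 0.60 (adjusted p = 0.853). IL1A is the fifth call, but it had 1 to 5 counts in each AGS library and was not tested within AGS, so no size is read from its difference. IL1B and IL6 were too low in AGS for the difference to be estimated. The labels give no batch, so line and batch cannot be told apart in these tests.

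The rest of the pathway was read from lists of genes grouped by function. With hRas in parental MCF10A, the lists of NF-kB subunits and feedback targets (19 tested), of C/EBP and mRNA stability factors (10 tested) and of the IL-6 and STAT3 axis (10 tested) had 0 genes called. Of 10 IL-1 family genes IL18 fell by 0.35 on the log2 scale (adjusted p = 0.0483). Of 16 other secreted factors linked to RAS, STC1, a glycoprotein hormone, rose by 1.99 (adjusted p = 0.00783), while PTGS2, the inducible cyclooxygenase, fell by 1.31 (adjusted p = 0.00478) and SERPINB2, an inhibitor of plasminogen activators, fell by 1.47 (adjusted p = 0.0180). Of 6 receptors and related chemokines only ACKR1, an atypical receptor that binds CXCL8, was called. It had 0 counts in both WT libraries and 1.86 and 1.97 CPM with hRas, so it entered the test through its hRas libraries. The list medians lay between -0.19 and 0.16, beside -0.01 over all genes, and 0.703% of all genes were called higher.

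In the 1q-loss clones, where 0.795% of all genes were called higher with hRas by edgeR's test, 3 of the listed genes were called higher. They were STC1 (log2 fold change 3.14, adjusted p = 0.00231), CLCF1, a ligand of the IL-6 family (0.93, adjusted p = 0.0444), and SOCS3, the feedback inhibitor of STAT3 (0.86, adjusted p = 0.0153). None of 19 NF-kB genes, 10 IL-1 family genes, 10 C/EBP and stability factors or 5 receptors was called, and the list medians lay between -0.02 and 0.35, beside 0.01 over all genes. These list results come from the fit without the clone block, and the lists were not read with it. Between 1q-loss and WT cells of MCF10A 0 genes of any list were called without hRas, where 2.04% of all genes were. With hRas 0 were called as well, where 0.214% of all genes were.

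A2058 with 1q loss differed from this in the number of listed genes that rose. Of 19 NF-kB genes 14 were higher and 1 lower, with ZC3H12A, a nuclease that degrades IL6 mRNA, up by 2.58 and IER3 by 1.91 on the log2 scale. TNIP3, which binds the NF-kB inhibitor A20, was at no more than 0.278 CPM in WT and 13.1 to 22 CPM with 1q loss, and NFKBIE, an inhibitor that holds NF-kB in the cytoplasm, fell by 0.63. Of 19 RAS-linked secreted factors 15 were higher and 0 lower, with a median of 4.00. TNFRSF11B, a decoy receptor, was at no more than 0.051 CPM in WT and 111 to 163 CPM with 1q loss, CSF3, the granulocyte growth factor, at no more than 0.0877 CPM and 54.6 to 278 CPM, and CCL5 at no more than 0.256 CPM and 19.4 to 25.2 CPM. Of 10 genes of the IL-6 and STAT3 axis 6 were higher, led by IL11 (21.5 to 55.5 CPM in WT, 325 to 942 CPM with 1q loss), and with CLCF1 up by 2.51. LIFR, a receptor of that family, was at 0.175 to 0.357 CPM in WT and 2.11 to 5.01 CPM with 1q loss. The 2 lower genes of that axis were IL11RA, the IL-11 receptor, which fell by 1.32, and JAK2, which fell by 0.32. Of 10 C/EBP and stability factors 5 were higher, among them CEBPD (1.54), CEBPB (1.44) and CEBPA, which was at 0.0877 to 0.278 CPM in WT and 1.23 to 2.94 CPM with 1q loss. The 2 lower ones, HNRNPD and KHSRP, which bind AU-rich mRNAs, fell by 0.35 and 0.21.

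Of the list of 11 receptors and related chemokines only 4 receptors were tested in the same cells, and they were split. The chemokine receptors CXCR1, CXCR2 and CCR6 were not among them. IL1R1, the signalling receptor for IL1A and IL1B, rose by 3.68 on the log2 scale, from 1.79 to 3.79 CPM in WT to 27.6 to 33.1 CPM with 1q loss, while its partner IL1RAP fell by 0.70. IL6ST, the shared signal transducer, rose by 1.51, and IL6R, which lies on 1q itself, fell by 2.11. Of 8 IL-1 family genes 4 were higher, with CASP1, which cleaves the IL1B precursor, up by 4.08 and IRAK2 by 2.67, and MYD88 fell by 0.34. IL33, the ligand of IL1RL1, was at 0.0928 to 0.426 CPM in WT and 4.04 to 9.85 CPM with 1q loss. The median over all genes was -0.00, and 25.3% of genes were called higher, so a list's count is read beside that share.

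**Figure D5:**
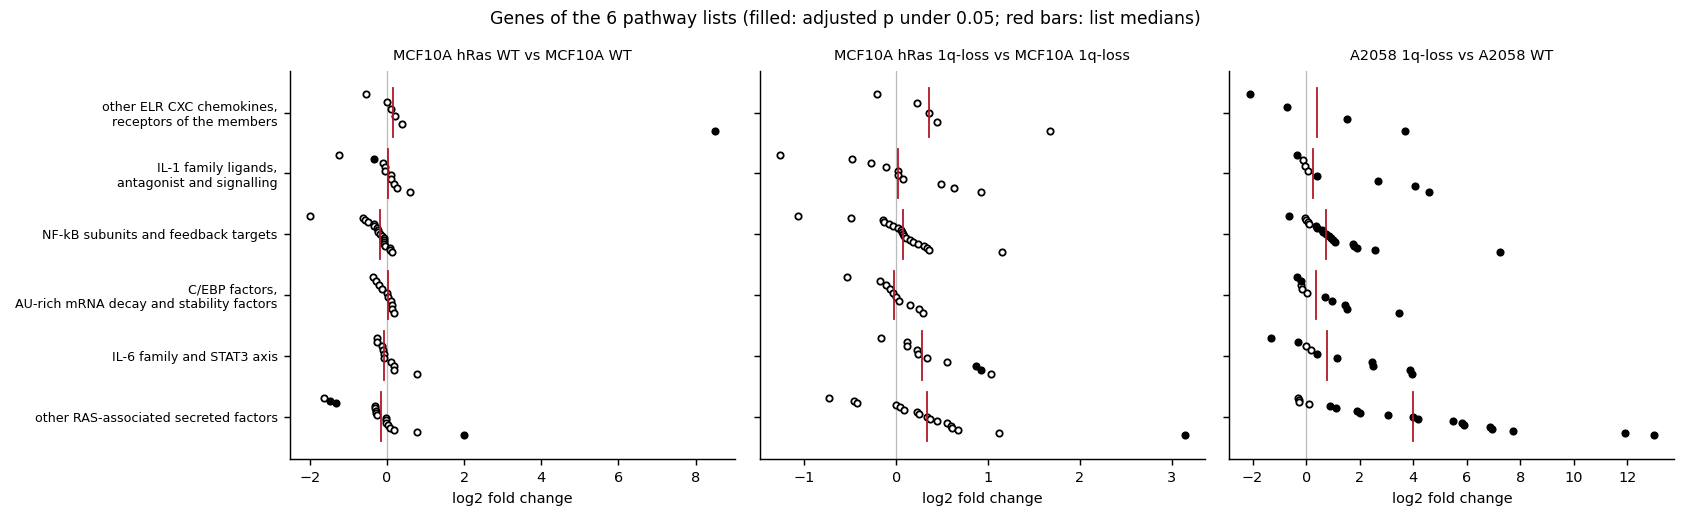
Log2 fold change of each tested gene of the 6 pathway lists in the 2 hRas comparisons and in A2058 with 1q loss (filled where the adjusted p is under 0.05), with bars at the list medians. Most listed genes lie near 0 in MCF10A with hRas and above 0 in A2058 with 1q loss; fitted values of genes at or near 0 counts in the controls, such as ACKR1, CSF3 and TNFRSF11B, depend on the fit's prior count and are no estimates of a fold.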

How the data were processed

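Poly-A RNA sequencing of 62 libraries was used. The authors deposited raw counts per gene, whole numbers that are not normalised. HISAT2 2.0.5, featureCounts 1.5.0-p3 and hg38 are named in the submitters' processing notes, whereas the deposited count tables of A2780 carry GRCh37 coordinates and another annotation, so A2780 was tested only within itself. Whether reads were counted by strand is not given in the sources used here.

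Groups, clones and replicate numbers came from the library titles and genotype labels. Levels are CPM of a library's total. Log2 fold changes come from edgeR 4.0.16 in R 4.3.3, fitted on all genes of a comparison after filterByExpr (minimum count 10) with TMM scaling, and adjusted by Benjamini-Hochberg over all genes tested, with a call at an adjusted p under 0.05. Printed ratios of CPM are not TMM-scaled. The edgeR code was tested on simulated data. No 2 libraries agreed within sampling noise.

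The 10 genes, the pathway lists, the marker lists and the tests were chosen with earlier results of these data known. Members were named in all comparisons, those too low to test or to size without a fold change. From each list, called genes with the largest change in each direction, up to 3, with a mean CPM of at least 1 are named in the hRas comparisons. That rule was extended to A2058 with 1q loss after the values were seen, as were the tests between lines and against other clones. ACKR1 falls below that mean and was named after its values were seen. Likeness was ranked by Pearson correlation of log2 CPM with 0.5 added to counts.

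Clone numbers in the 1q-loss hRas comparison pair the libraries by source (r = 0.535, 0.290, 0.583 and 0.718 for clones 1 to 4). Pairing by replicate number was judged by correlating, over genes, the differences between replicates 1 and 2 of a clone with those of a control. Between MCF10A 1q-loss clones and WT these correlated at 0.142 to 0.281, so replicate numbers pair those libraries. In A2780 the value was 0.183 between TK+ and WT, on 1 pair, and -0.192 to 0.389 between 1q-loss clones and controls. In each other comparison at most 1 pair was over 0.1. Alternatives were DESeq2 1.42.0, other size factors, other filters, blocks for clone and replicate, summed clones, 1 fit of all MCF10A libraries and each library or clone left out. A count of 0 is read against a limit of 3 counts, which covers counting error only.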

Additional observations from a re-analysis of the deposited data

Results flagged for a closer look

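A single library stood apart from its group in 5 of 59 gap tests (a gene in a group of 4 to 10 libraries), where chance gives about 1 in 20. In MCF10A 1q-loss clone 4 replicate 2, CCL20 was 8.59 CPM, with the next library at 6.14 CPM, and CXCL3 was 2.03 CPM, with the next at 0.796 CPM. CXCL8 was 2.65 CPM in A2780 1q-loss clone 6 replicate 1, with the next library at 0.264 CPM. IL1B was 44.2 CPM in A2058 7p-loss clone 1 replicate 1, with the next at 6.50 CPM. IL6 was 9.69 CPM in A2058 8q-loss clone 2 replicate 1, with the next at 4.38 CPM.

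The effect of 1q loss differed between cell lines by edgeR's quasi-likelihood test of the difference. It was larger in A2058 than in MCF10A by 2.84 for CXCL1, 3.69 for CXCL2, 3.61 for CXCL3, 3.49 for CXCL8 and 8.92 for IL1B on the log2 scale, with adjusted p from 4.37e-08 to 0.0227. IL1A passed too (fitted value 6.92), but its size cannot be read, given its few counts in A2058 WT. It was larger in A2058 than in AGS by 3.02 for CXCL1, 3.53 for CXCL2, 3.47 for CXCL3 and 5.0 for CXCL8, with adjusted p from 0.000114 to 0.00314. IL1A passed that test too (fitted value 6.71, adjusted p = 0.00462), but its size cannot be read, since each AGS library had 1 to 5 counts. IL1A also rested on 13 counts in all in A2058 WT.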

How the results depend on the processing

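Over 15 counts of called members and 246 alternatives, 235 counts were within 1.5 times of the reported one and 11 were not. For hRas in parental MCF10A the count of 2 became 4 with no filter on low counts and 4 with a replicate block (IL1A and IL1B called lower in both, although replicate numbers do not pair these libraries), 0 in 1 fit of all 20 MCF10A libraries and 0 to 3 when 1 library was left out. For hRas in 1q-loss clones the count of 4 became 0 with the libraries of each clone summed and 2 to 5 when 1 library or clone was left out. It was 3 with a replicate block, because the adjusted p of CCL20 became 0.0507. For 1q loss with hRas in both groups the count of 0 became 3 with DESeq2. The replicate block changed no count in the other 9 comparisons it was run in, and it was not run for AGS, for the tests between lines or for 1q loss against 7p and 8q loss. The clone block is given beside its results.

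No log2 fold change of a called member changed sign in 393 alternatives, and 28 lost the call, all in the 2 hRas comparisons. Counts of called genes varied more: 0 to 711 (237 as reported) for hRas in parental cells, 0 to 2160 (172) in 1q-loss clones, 0 to 496 (34) for 1q loss with hRas, 16 to 567 (319) for 1q loss without it, 1 to 898 (139) for 7p loss, 16 to 783 (308) for 8q loss, 0 to 133 (22) in HCT116, 97 to 2232 (1131) in AGS, 725 to 2574 (1780) and 1094 to 3278 (1669) in A2780 for 1q loss and TK+, and 6315 to 8182 (7638) for 1q loss in A2058. Low counts limit CXCL5, IL6 outside A2058 and all members in A2780.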

Other observations

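A2058 libraries of 1 clone differed by replicate number, and not in 1 direction. In both 1q-loss clones replicate 2 was above replicate 1 for each of the 7 members that rose, by 2.92 and 2.02 times for CXCL8, 3.83 and 2.30 times for IL6 and 1.95 and 1.80 times for IL1B. In the 7p-loss and 8q-loss clones replicate 2 was below replicate 1 for CXCL8, at 0.682, 0.709 and 0.745 of its level after 7p loss and 0.495 and 0.419 after 8q loss, and also for CXCL1 and CXCL3. CXCL2 did not follow this, with replicate 2 at 1.41, 1.79 and 1.10 times replicate 1 in the 7p-loss clones and 0.95 and 0.946 times in the 8q-loss clones, and IL6 was 1.09 times as high in 7p-loss clone 1 and lower in the other 4 clones. IL1B, which IL-1 signalling itself induces, had replicate 2 at 0.144 and 0.273 of replicate 1 in 7p-loss clones 1 and 2 and at 0.342 and 0.12 in the 8q-loss clones. The order between the clone groups was larger than these swings for IL1B, since the lowest 1q-loss library had 495 CPM and the highest of the other A2058 libraries 44.2 CPM.

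Over the 14 A2058 libraries without 1q loss, CXCL1, CXCL8 and IL1B varied together and other members less so. CXCL1 and CXCL8 had a Pearson correlation of log2 CPM of 0.89, and 0.85 without the 2 libraries farthest from the median of CXCL1. CXCL8 and IL1B correlated at 0.88, and at 0.82 without the 2 libraries farthest from the median of CXCL8. CXCL8 correlated with CCL20 at 0.44, with CXCL2 at 0.44 and with IL6 at 0.36, and CCL20 correlated with CXCL2 at -0.44 and with IL6 at -0.38. These libraries share clones in pairs, and the values are descriptions.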
